A study of Homo sapiens with 5 samples.

Results

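MALAT1 and NEAT1 are long noncoding RNAs that stay in the nucleus, and they are described here across 5 libraries of A549, a much used cell line from a human lung adenocarcinoma. They were chosen by symbol, as 2 of the 58929 genes in each library's table. The study's design text calls the libraries ribosome footprints, and asks what RBMS1, an RNA-binding protein, does in these cells. The groups were RBMS1 knockdown (2 libraries, sh1088 and sh1196, stably depleted lines with a hairpin each), its sh control (1 library), RBMS1 overexpression (1 library, R1A, a stable line) and its pCDH control (1 library). All lines grew in F12K medium with serum and received cycloheximide, which stalls ribosomes, at 100 µg/mL for 15 min before lysis. RNase I then cut the lysates for 5 min, single ribosomes were collected from a sucrose gradient, and ribosomal RNA was depleted before library preparation. The molecule label of every library reads total RNA, and the protocols also describe a fragmented total RNA input, so that these are footprints rests on the design text.

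MALAT1 gathers in nuclear speckles, bodies rich in splicing factors, and was first described in lung adenocarcinoma. NEAT1 makes a short and a long transcript, and the long one is the scaffold of paraspeckles, bodies that hold RNA-binding proteins such as NONO and SFPQ. Both RNAs lack a known protein product, and in the main transcript of MALAT1 and the long one of NEAT1 the 3′ end is not made by cleavage and polyadenylation. RNase P cuts instead just before a small tRNA-like RNA, and the new end is protected by a triple helix in which a genomically encoded A-rich tract pairs with U-rich stretches upstream.

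Both genes lie on the plus strand of chromosome 11 (GRCh38, GENCODE release 29), with 52147 nt between them. NEAT1 (ENSG00000245532.8) runs over chr11:65422774-65445540 and MALAT1 (ENSG00000251562.8) over chr11:65497688-65506516, both annotated as intergenic noncoding RNA genes. The bases just before the cleavage site are shown because they form the end that replaces a poly(A) tail. Capitals mark runs of at least 5 T or 5 A, and both sequences are exonic, from the single-exon transcripts MALAT1-202 (chr11:65506007-65506116) and NEAT1-202 (chr11:65445431-65445540).
MALAT1-202: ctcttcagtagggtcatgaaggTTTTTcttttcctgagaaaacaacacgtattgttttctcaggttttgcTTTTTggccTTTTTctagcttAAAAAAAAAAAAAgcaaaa
NEAT1-202: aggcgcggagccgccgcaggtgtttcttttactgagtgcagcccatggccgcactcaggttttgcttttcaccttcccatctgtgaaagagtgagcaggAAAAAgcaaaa
Over these 110 bases MALAT1 had 3 T runs and 1 A run of that length, and NEAT1 had no such T run and 1 A run. A and T made up 67.3% of the MALAT1 bases and 47.3% of the NEAT1 bases, and both ended in the same letters, gcaaaa.

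The tRNA-like RNAs that follow are known as mascRNA for MALAT1 (chr11:65506117-65506173, 57 nt) and menRNA for NEAT1 (chr11:65445541-65445598, 58 nt). They are shown because they mark the cleavage site, and capitals here mark bases that differ in a global alignment of the pair or that stand against a gap.
mascRNA: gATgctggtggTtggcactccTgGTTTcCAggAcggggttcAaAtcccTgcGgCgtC
menRNA: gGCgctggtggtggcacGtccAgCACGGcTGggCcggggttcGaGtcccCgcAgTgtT
They shared 40 identical bases over 59 alignment columns, or 67.8%. The annotation lists both small RNAs as genes of their own, and both had 0 counts in all 5 libraries. A count of 0 allows up to 0.290 CPM (counts scaled to a common library total) in the shallowest library, sh1196, and 0.215 CPM in the deepest, the pCDH control (3 counts of the library, counting error only). Reads from mascRNA could also be assigned to MALAT1 transcripts that run through it, and the mean fragment, between 40.9 and 52.3 nt long, nearly fills it.

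The libraries differed in make-up, which touches every level below. Total expected counts were between 10327747 and 13980843. Nuclear protein-coding genes took 42.2% and 66.0% of counts in the knockdown libraries sh1088 and sh1196 against 37.7% in the sh control, and 62.3% in the overexpression library against 66.3% in the pCDH control. One noncoding gene, AL355075.4, took 20.8% and 7.26% in the knockdown libraries against 30.0% in the sh control, and 11.03% with overexpression against 15.0% in the pCDH control. RBMS1 itself, the check of the labels, had 15.0 and 16.8 CPM in sh1088 and sh1196 against 21.4 in the sh control, and 41.9 with overexpression against 30.8 in the pCDH control, in the labelled directions. All 8 markers fixed for A549 and airway epithelium were counted, from EPCAM at 3.20 to 18.5 CPM up to ALDH1A1 at 4062 to 9061 CPM. Of markers of other cell types, the immune genes PTPRC and CD3E, the fibroblast gene DCN and the endothelial genes VWF and KDR were at 0 in all libraries. Other such markers had counts: CD14 was at 4.73 to 26.0 CPM, COL1A1 at 0.861 to 11.9 CPM, and LYZ, COL3A1, LUM, PDGFRB, PECAM1 and CDH5 stayed under 1 CPM. The immune markers summed to 10.3 and 15.1 CPM with knockdown against 4.73 CPM in the sh control, and to 14.7 CPM with overexpression against 26.8 CPM in the pCDH control, and their part in the results was not tested. In such bulk libraries fewer cells that make an RNA and less of it per cell cannot be told apart.

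MALAT1 was among the most counted genes of every library. It took 1.83% (95% Wilson interval 1.82 to 1.84) and 1.95% (1.94 to 1.96) of all counts in the knockdown libraries sh1088 and sh1196, against 0.727% (0.722 to 0.732) in the sh control. It took 2.17% (2.16 to 2.18) in the overexpression library, against 2.29% (2.28 to 2.30) in the pCDH control. By count it held place 9 and 5 among all genes with knockdown against 15 in the sh control, and place 3 both with overexpression and in the pCDH control. The sh control was the low library, and 0 protein-coding nuclear genes had more counts than MALAT1 in any of the 5.

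NEAT1 was counted less than MALAT1 (5.12 to 10.1 MALAT1 counts per NEAT1 count) and still stood above nearly all protein-coding genes. It took 0.191% (0.189 to 0.194) and 0.247% (0.244 to 0.251) of counts in sh1088 and sh1196, against 0.142% (0.140 to 0.144) in the sh control. It took 0.215% (0.212 to 0.217) with overexpression, against 0.360% (0.357 to 0.363) in the pCDH control. The number of coding genes with more counts was 6 in each knockdown library and 9 in the sh control, then 7 with overexpression and 2 in the pCDH control. The intervals hold counting error alone and no variation between cultures or libraries. Reads copied by PCR do not stand for separate molecules, so the intervals may be too narrow even for that error. Together both RNAs took 2.02% and 2.20% of counts with knockdown against 0.869% in the sh control, and 2.38% with overexpression against 2.65% in the pCDH control.

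**Figure D1:**
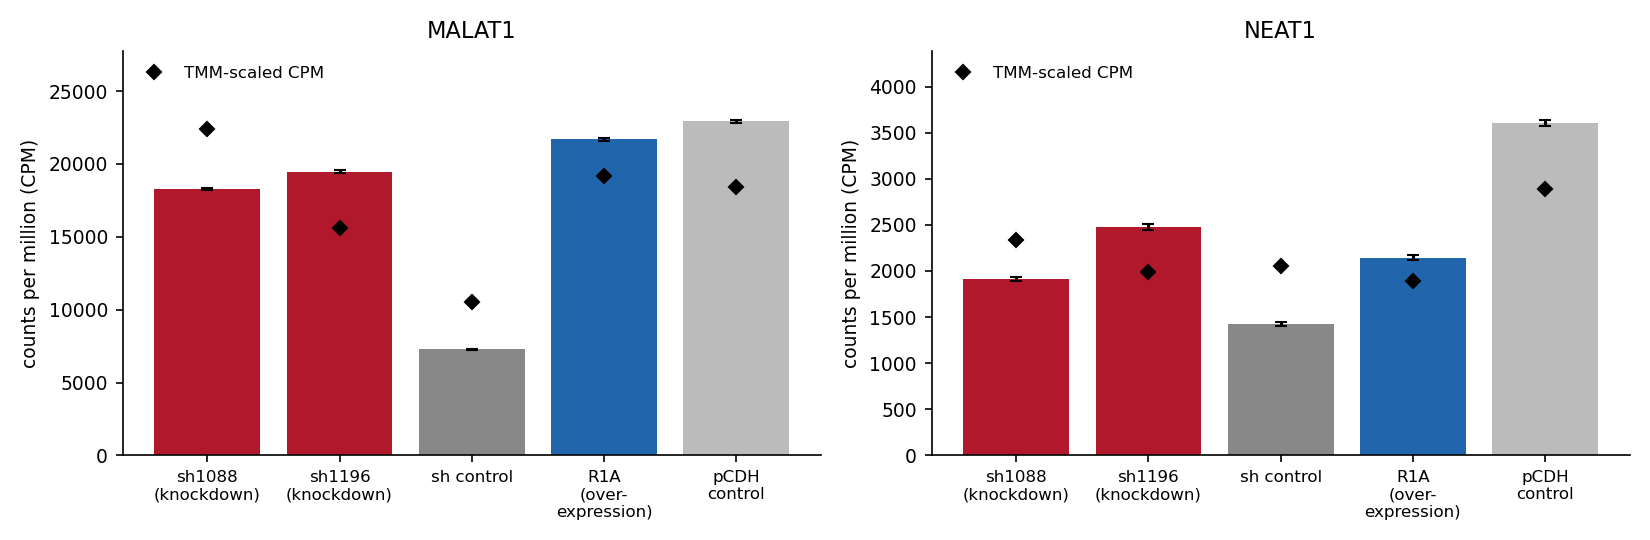
CPM of MALAT1 (left) and NEAT1 (right) in the 5 libraries. Bars are CPM with exact Poisson 95% intervals (counting error only), and diamonds are the same counts after TMM scaling. The sh control is lowest for MALAT1 on both scales, at 7271 CPM, and the pCDH control is highest for NEAT1 on both, at 3603 CPM.

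Levels between libraries depend on how the libraries are scaled, and TMM, which sets most genes to be equal on average, narrowed the spread. On TMM-scaled CPM, MALAT1 was at 22370 and 15613 in sh1088 and sh1196 against 10529 in the sh control, and at 19146 with overexpression against 18398 in the pCDH control. In the order of these levels (sh1088, overexpression, pCDH control, sh1196, sh control), the hairpin libraries were 0.52 apart on the log2 scale. The steps from sh1088 down to sh1196 lie within that gap and could not exceed it. The one step outside it, down to the sh control, was 0.57. NEAT1 was at 2338 and 1983 TMM-scaled CPM in sh1088 and sh1196 against 2057 in the sh control, and at 1894 with overexpression against 2892 in the pCDH control. The hairpin libraries were 0.24 apart with the sh control between them, so the steps on either side of the sh control could not exceed that gap. Outside the hairpin libraries, the step from the pCDH control down to sh1088 was 0.31 and that from sh1196 down to overexpression was 0.067.

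Over the 5 libraries the SD of log2 TMM-scaled CPM was 0.41 for MALAT1 and 0.25 for NEAT1, where the median of 10610 genes with a mean of at least 5 CPM was 0.48. Ranked among these genes by SD, NEAT1 stood at percentile 11.1 and MALAT1 at percentile 39.8.

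By the authors' FPKM, which uses a library's own estimate of gene length, both RNAs stood above the other noncoding RNAs listed here. Among all long noncoding RNA genes they were not first by count. MALAT1 held place 3 in both knockdown libraries against 4 in the sh control, and 2 with overexpression and in the pCDH control. NEAT1 held place 4 in both knockdown libraries against 5 in the sh control, and 5 with overexpression against 4 in the pCDH control. The authors' FPKM of MALAT1 was 12732 and 21275 in sh1088 and sh1196 against 2722 in the sh control, and 15965 with overexpression against 18973 in the pCDH control. That of NEAT1 was 979 and 1316 in the knockdown libraries against 766 in the sh control, and 966 with overexpression against 2457 in the pCDH control. Among 14 other nuclear or chromatin-bound noncoding RNAs (such as TUG1, MEG3 and KCNQ1OT1) the highest FPKM in a library was 150 and 317 with knockdown against 193 in the sh control, and 116 with overexpression against 257 in the pCDH control. Among 12 cytoplasmic noncoding RNAs, including the snoRNA hosts GAS5 and SNHG1, whose spliced RNAs are known to be bound by ribosomes, the highest was 273 and 255 with knockdown against 433 in the sh control, and 158 with overexpression against 320 in the pCDH control. By FPKM, MALAT1 and NEAT1 exceeded all 26 listed RNAs in each of the 5 libraries. For NEAT1 this rests on the weighted length that RSEM gave it, given below. Per kb of each gene's longest annotated transcript, MALAT1 still exceeded all 26, but NEAT1 was exceeded by 3 and 2 of them in sh1088 and sh1196 and by 4 in the sh control, and by 0 with overexpression and in the pCDH control. On that scale NEAT1 was at 84.1 and 109 CPM per kb with knockdown against 62.5 in the sh control, and at 94.4 with overexpression against 158 in the pCDH control.

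**Figure D2:**
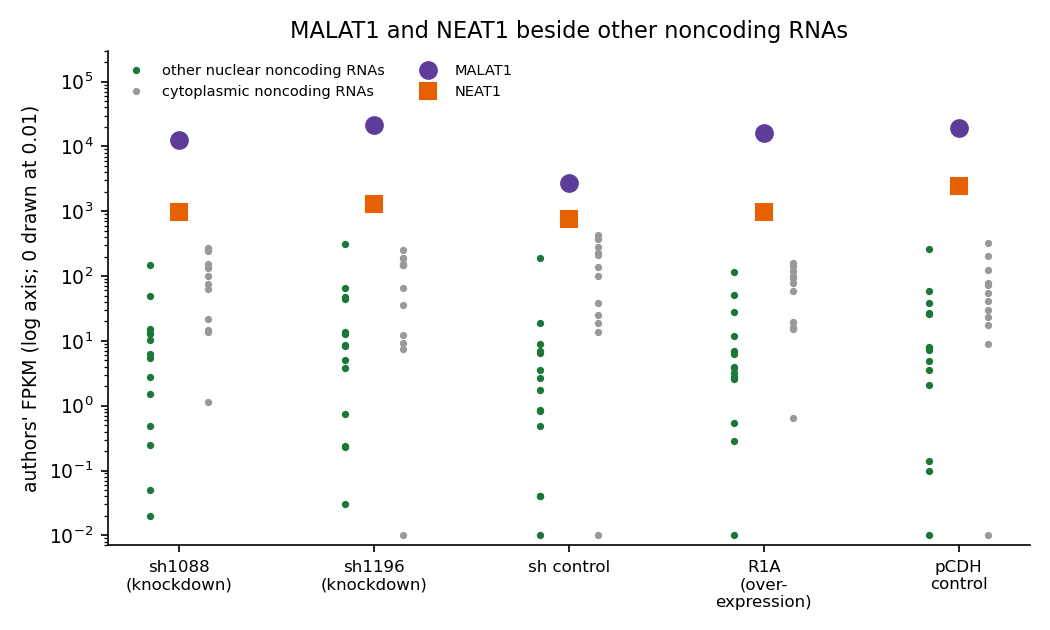
The authors' FPKM (log axis, values of 0 drawn at 0.01) of MALAT1, NEAT1, 14 other nuclear noncoding RNAs and 12 cytoplasmic noncoding RNAs in the 5 libraries. Each small point is a gene. On this scale MALAT1 and NEAT1 lie above every plotted gene in every library.

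The length that RSEM gave MALAT1 differed strongly between libraries. RSEM weights the annotated transcripts of a gene by their estimated abundance. For MALAT1 the files list 17 transcripts of 132 to 8708 nt, of which MALAT1-202 alone exceeds 8000 nt, and for NEAT1 they list 8 transcripts of 512 to 22743 nt, of which NEAT1-202 alone does. The weighted length of MALAT1 was 1480 and 961 nt in sh1088 and sh1196 against 2716 nt in the sh control, and 1399 nt with overexpression against 1259 nt in the pCDH control. That of NEAT1 was 1995 and 1926 nt in the knockdown libraries against 1899 nt in the sh control, and 2262 nt with overexpression against 1518 nt in the pCDH control.

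The weighted MALAT1 length was thus longest in the sh control and shortest in sh1196. Such a mean bounds how many molecules RSEM can have given to the longest transcript. For MALAT1-202 the bound was 15.7% and 9.67% of molecules with knockdown against 30.1% in the sh control, and 14.8% with overexpression against 13.1% in the pCDH control. For NEAT1-202 it was 6.67% and 6.36% with knockdown against 6.24% in the sh control, and 7.87% with overexpression against 4.52% in the pCDH control. Because these transcripts are long, even so few molecules could hold up to between 91.4% and 97.7% of MALAT1 reads and between 70.0% and 80.4% of NEAT1 reads. The files give no count per transcript that was used here, so the true shares lie at or under these bounds. Within RSEM's own model the posterior SD of the gene's count was at most 0.13 for MALAT1 and 19.5 for NEAT1, which is small beside their 84481 and 16507 counts in the sh control, their lowest.

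**Figure D3:**
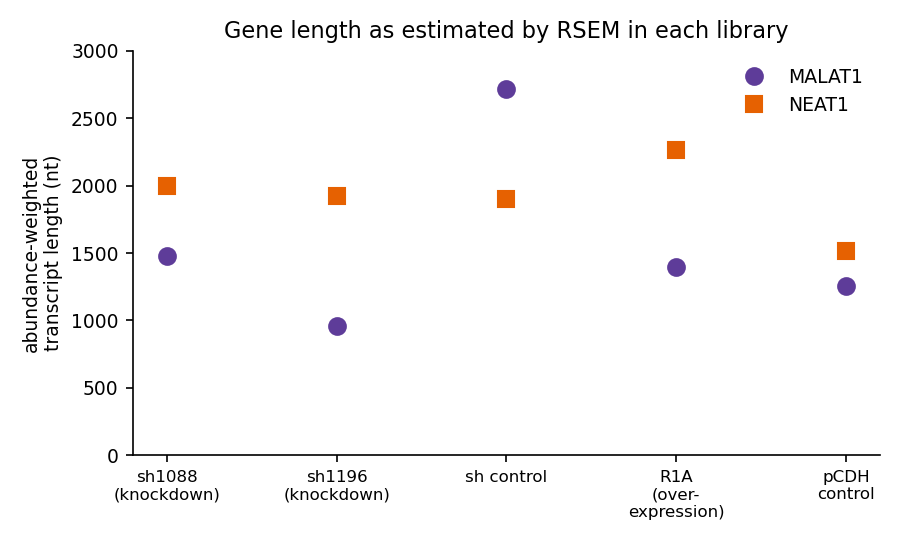
Transcript length of MALAT1 (circles) and NEAT1 (squares) in each library, in nt, weighted by RSEM's estimated transcript abundances. MALAT1 lies between 961 and 1480 nt except in the sh control, at 2716 nt, and NEAT1 between 1518 and 2262 nt.

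MALAT1 had more counts in both knockdown libraries than in the sh control, and this difference did not pass the test. It had 18303 and 19479 CPM in sh1088 and sh1196, against 7271 CPM in the sh control. The groups did not overlap, and the CPM was 2.52-fold and 2.68-fold that of the sh control. Both knockdown libraries also lay above the control for 58.6% of the genes tested by CPM (14.3% lay below it in both), and for 37.0% by TMM-scaled CPM (34.2% below). After TMM scaling the log2 ratio was 1.13 for sh1088 (95% counting interval 1.11 to 1.14) and 0.60 for sh1196 (0.58 to 0.61). The edgeR quasi-likelihood fit put the log2 fold change at 0.89 with an SE of 0.98 (edgeR adjusted p = 0.883), where the median of all genes was 0.07. Of the 2 members 0 were called, as were 0 of 14913 genes tested (0%), while 876 genes (5.87%), though neither member, had an unadjusted p under 0.05. DESeq2 called 14 genes and limma-voom 0, without either member.

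NEAT1 differed little between knockdown and control. It had 1913 and 2475 CPM in sh1088 and sh1196, against 1421 CPM in the sh control. CPM was above the control in both libraries, but after TMM scaling the log2 ratio was 0.22 for sh1088 (0.19 to 0.25) and -0.026 for sh1196 (-0.054 to 0.0027), so that the groups overlapped. In edgeR its log2 fold change was 0.10 with an SE of 0.68 (edgeR adjusted p = 0.985). With library size alone as the scale it was 0.63 for NEAT1 and 1.38 for MALAT1, where the median of all genes was 0.61. With a single control library, 1 residual degree of freedom was left, and the control was assumed to vary like the knockdown libraries. When the pCDH control replaced the sh control, the log2 fold change was 0.062 for MALAT1 and -0.41 for NEAT1, so the size of the MALAT1 difference rests on the sh control.

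The authors' TPM showed a much larger MALAT1 difference than the counts. TPM was 5586 and 10456 in sh1088 and sh1196, against 830 in the sh control, or 6.73-fold and 12.6-fold. The shorter effective length in the knockdown libraries enters this ratio as a factor of 1.86 in sh1088 and 2.92 in sh1196, the control length over that of the knockdown library. Among 6770 coding genes with at least 100 counts in each library, 97.0% and 98.8% had a smaller such factor. On log2(TPM + 1) limma gave 3.20 for MALAT1 (limma adjusted p = 0.0907), against a median of 0.78 over all genes. NEAT1 had 430 and 647 TPM with knockdown against 234 in the sh control, and limma gave 1.17 (limma adjusted p = 0.689).

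In the authors' deposited table for knockdown the log2 fold change was 0.88 for MALAT1 (p = 0.00334, adjusted p = 0.0745) and 0.098 for NEAT1 (adjusted p = 0.919). These sizes in the authors' deposited table lie near those of the counts here.

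With RBMS1 overexpression the 2 RNAs parted: NEAT1 was lower than in the control and MALAT1 was nearly level. NEAT1 had 2146 CPM in the overexpression library, against 3603 CPM in the pCDH control. The log2 ratio of TMM-scaled counts was -0.60 (95% counting interval -0.62 to -0.58). MALAT1 had 21693 CPM with overexpression, against 22918 CPM in the pCDH control, and a TMM log2 ratio of 0.070 (0.062 to 0.078), next to a median of 0.069 over 10844 genes with a mean of at least 5 CPM. There is 1 library a group, so the difference has no replicate check and no p-value. Neither member passed a 2-fold difference, which 15.0% of genes passed upward and 13.8% downward. The sign for MALAT1 depends on the scale, since its ratio was -0.079 with library size alone, and that for NEAT1 was negative on each scale used.

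In this arm coding genes near the members in GC content had a higher median ratio than the 0.069 of genes at large. The GC content of the longest transcript is 40.3% for MALAT1 and 44.1% for NEAT1, against a median of 47.9% over 10106 coding genes. The 500 coding genes nearest to MALAT1 in GC content had a median overexpression log2 ratio of 0.54 (quartiles 0.078 and 0.95), and those nearest to NEAT1 had one of 0.39 (-0.090 and 0.97). Measured from these medians MALAT1 was at -0.47 and NEAT1 at -0.99, at percentiles 24.8 and 9.40 of those genes. The mean fragment was 40.9 nt with overexpression, the shortest of the 5, and 52.3 nt in the pCDH control, the longest. The part of GC content and fragment length in these ratios was not tested. For knockdown the same medians were between -0.069 and 0.045.

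By the authors' TPM, NEAT1 was at 519 with overexpression against 1914 in the pCDH control, and MALAT1 at 8579 against 14781. The median of all genes was itself shifted by -0.71 on the log2(TPM + 1) scale, where the differences were -1.88 for NEAT1 and -0.78 for MALAT1. The authors' deposited table for overexpression gives the other sign for NEAT1, a log2 fold change of 0.17 (adjusted p = 0.770), and 0.51 for MALAT1 (adjusted p = 0.186). Those fold changes are not a fixed rescaling of its count columns. Over 2786 genes with more than 500 counts, the value in the authors' deposited table minus the log2 ratio of its counts had a median of 0.45 and ran from 0.12 to 0.91 (percentiles 5 and 95), and it was 1.33 for NEAT1 and 1.01 for MALAT1. In the authors' deposited knockdown table it ran from -0.53 to -0.38. The sources used here do not say how the overexpression values were made from these counts.

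**Figure D4:**
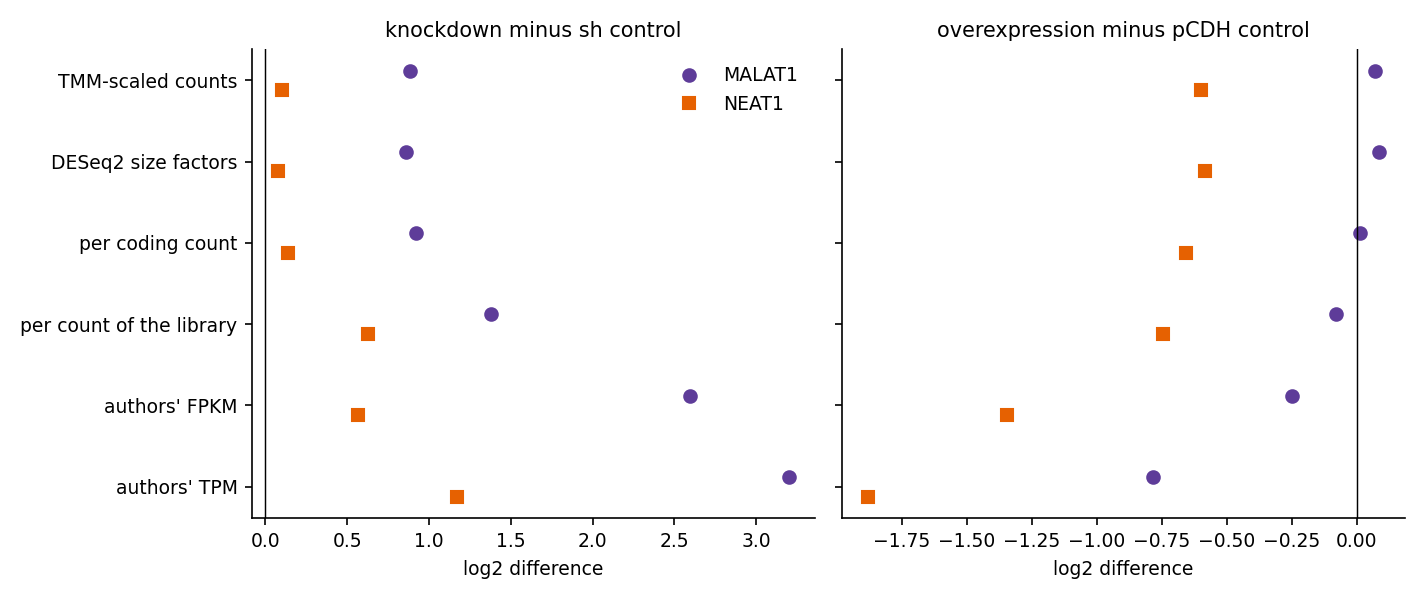
Log2 difference of MALAT1 (circles) and NEAT1 (squares) for knockdown minus sh control (left) and overexpression minus pCDH control (right), by 4 scalings of the counts and by the authors' FPKM and TPM on log2(value + 1). MALAT1 lies above NEAT1 in every row of both panels, and the MALAT1 difference in knockdown runs from 0.86 to 3.20 between units.

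In a fit over all 5 libraries, with the RBMS1 level coded as -1, 0 and 1 for knockdown, control and overexpression and a term for the vector system, neither member was called. The log2 change per level was -0.46 for MALAT1 (SE 0.71, edgeR adjusted p = 0.898) and -0.30 for NEAT1 (SE 0.50, edgeR adjusted p = 0.904). Of 14523 genes tested 0 were called (0%), while 962 (6.62%), though neither member, had an unadjusted p under 0.05. DESeq2 called 56 genes and limma-voom 0, again without either member. Without the sh control the MALAT1 value was 0.057. Without the vector term the values were -0.046 for MALAT1 and -0.050 for NEAT1, and with library size alone they were -0.80 and -0.68, where the median of all genes was -0.35. The fit assumes that both arms share a slope. For MALAT1 the arms' own values above, each altered line minus its control, were 0.89 and 0.070. Knockdown is coded -1, so 0.89 stands for a fall per level and 0.070 for a rise. The sign of the second depends on the scale.

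The ratio of both RNAs within a library needs no scaling between libraries, and it differed the same way in both arms. MALAT1 had 9.57 and 7.87 counts per NEAT1 count in sh1088 and sh1196, against 5.12 in the sh control. It had 10.1 counts per NEAT1 count with overexpression, against 6.36 in the pCDH control. Both control libraries were thus below all 3 libraries with altered RBMS1, although RBMS1 was altered in opposite directions. How many other gene pairs part the controls in this way was not counted. The arms also differed in which RNA moved on TMM-scaled counts. In knockdown the log2 ratio was 1.13 and 0.60 for MALAT1 and 0.22 and -0.026 for NEAT1. With overexpression it was -0.60 for NEAT1 and 0.070 for MALAT1. As log2 of NEAT1 over MALAT1, the knockdown libraries averaged -3.12 ± 0.20 (SD, n = 2) and the sh control was at -2.36 (95% counting interval -2.38 to -2.33), a difference of -0.76. The overexpression library was at -3.34 (-3.36 to -3.32) and the pCDH control at -2.67 (-2.68 to -2.66), a difference of -0.67.

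The knockdown difference was -0.90 for sh1088 and -0.62 for sh1196, both larger in size than the SD between hairpins. That SD does not measure how a single control library varies. The sh and pCDH controls themselves stood at -2.36 and -2.67. With 2 libraries against 1, and 1 against 1, an exact permutation test cannot reach 0.05, and none was run. By TPM, which divides each RNA by its own effective length, the log2 differences were -2.03 for knockdown and -1.10 for overexpression. With the controls exchanged between the arms, the count differences were -0.45 and -0.98, of the same sign. Per nt of the longest transcript, MALAT1 exceeded NEAT1 by 24.99-fold and 20.6-fold with knockdown against 13.4-fold in the sh control, and by 26.4-fold with overexpression against 16.6-fold in the pCDH control.

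**Figure D5:**
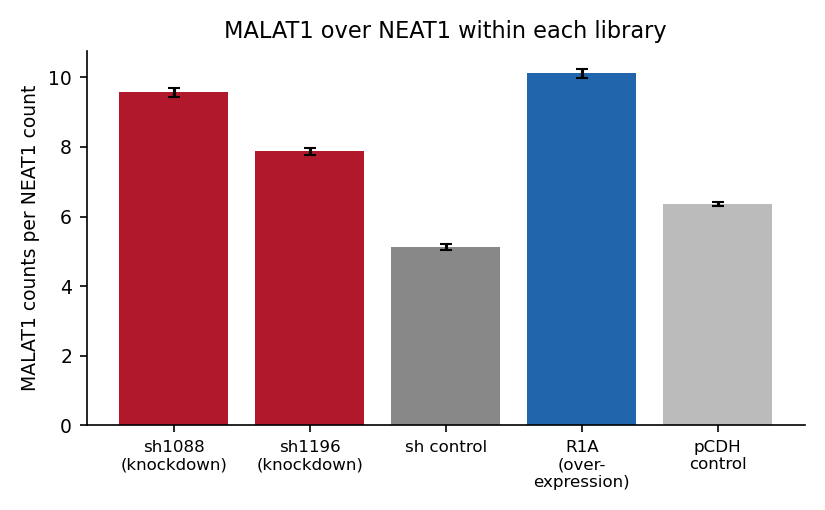
MALAT1 counts per NEAT1 count in each library, with exact 95% counting intervals (counting error only). Both knockdown libraries and the overexpression library lie between 7.87 and 10.1, above the sh control at 5.12 and the pCDH control at 6.36.

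Other annotated genes at the locus took almost none of the reads. RF01956, one of the short conserved elements annotated inside NEAT1 on the same strand, had 19.2 and 171 counts in sh1088 and sh1196 against 80.7 in the sh control, and 0 with overexpression against 100 in the pCDH control. Counts can be split between it and NEAT1, and all overlapping elements on its strand would add at most 0.669% to NEAT1 in any library. The others inside NEAT1 were RF01955, with 3.13 counts in the pCDH control and 0 elsewhere, and RF01957 and the microRNA gene MIR612, at 0 throughout. Inside MALAT1, RF01871 was at 0 throughout, and the antisense gene AP000769.2 had 3 counts in sh1088, 0 in sh1196 and 4 in the sh control, and 0 in the overexpression and pCDH control libraries. The sources used here do not say whether counting used strand.

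FRMD8, the nearest coding gene upstream of NEAT1, was far lower. It had 105 and 134 counts with knockdown against 66 in the sh control, and 135 with overexpression against 362 in the pCDH control. For every FRMD8 count there were 2046 and 1501 MALAT1 counts with knockdown against 1280 in the sh control, and 1682 with overexpression against 885 in the pCDH control.

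The genes whose profile over the 5 libraries was most like each member were all weakly counted coding genes. Likeness was the root mean square distance of mean-centred log2 TMM-scaled CPM over 10609 other genes with a mean of at least 5 CPM. For MALAT1 the nearest were CYB561D1 (distance 0.043), NT5C3A, CYP26B1, ZNF45 and ZNF473, with a median distance of 0.57 over all genes. NEAT1 held place 1095 and RBMS1 place 7697. For NEAT1 the nearest were USE1 (distance 0.016), TWNK, HOMEZ, ZNF691 and TRMT61A, with a median of 0.48. MALAT1 held place 2978 and RBMS1 place 7089. With 5 points a profile, this order is a description that any shared depth or composition also shapes.

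Proteins of the bodies that hold these RNAs were not called either. Of 14 paraspeckle proteins tested in knockdown 0 were called and 9 had a higher estimate, with a median log2 fold change of 0.24 against 0.07 over all genes. The 4 with the smallest p were PSPC1 at 1.22, RBM14 at 0.93, SFPQ at 0.75 and TARDBP at 0.50, with adjusted p between 0.828 and 0.864 in edgeR. PSPC1, a relative of NONO, had 15.2 and 47.4 CPM in sh1088 and sh1196, against 8.61 CPM in the sh control. SFPQ, which NEAT1 assembly in paraspeckles needs, had 107 and 263 CPM in sh1088 and sh1196, against 72.0 CPM in the sh control. With overexpression 0 of the 14 were at least 2-fold higher and 2 were at least 2-fold lower, a share near the 13.8% of all genes that were lower by as much, among them SMARCA4 (log2 ratio -1.37, named after its value was seen).

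Of 14 nuclear speckle proteins 0 were called in knockdown and 12 had a higher estimate, with a median of 0.39 against 0.07 over all genes. PNN, a speckle protein tied to splicing, was at 1.60 (SE 0.52, edgeR adjusted p = 0.828), with 105 and 178 CPM in sh1088 and sh1196 against 31.6 CPM in the sh control. The splicing factors SRSF7 and SRSF2 were at 0.86 and 0.80, and the speckle scaffold SRRM2 at 0.74. SRRM2 had 146 and 641 CPM in sh1088 and sh1196 against 146 CPM in the sh control, so its estimate rests on sh1196. With overexpression 1 of the 14, SRSF1 (named after its value was seen), was at least 2-fold higher and 0 were as much lower. Of all genes 15.0% were higher and 13.8% lower by as much.

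Of 14 genes for the 3′ end machinery 0 were called in knockdown and 8 had a higher estimate, with a median of 0.029. The RNase P subunit RPP30 was at -0.91 (SE 0.43), and the RNase P subunits POP7 at -0.75 and RPP14 at -0.83. ELAC2, the RNase Z that trims tRNA 3′ ends, was at 0.83. It had 33.6 and 140 CPM in sh1088 and sh1196 against 30.3 CPM in the sh control, so its estimate rests mainly on sh1196. RPPH1, the RNA of RNase P, was listed at 25560 and 34481 CPM with knockdown against 20748 CPM in the sh control, and at 28899 CPM with overexpression against 0 in the pCDH control. It overlaps AL355075.4, so the split of counts between them is uncertain and no fold is given. In overexpression 3 of the 14 were at least 2-fold higher: RPP30 (log2 ratio 1.34), RPP14 (2.41) and RPPH1, with its uncertain split. As much lower were 0, against 15.0% of all genes higher and 13.8% lower.

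Other nuclear noncoding RNAs had a higher median in knockdown than the 3 lists above and the cytoplasmic noncoding RNAs. Of the 12 tested, 0 were called, 8 had a higher estimate and the rest a lower one. Their median was 0.66 against 0.07 over all genes. In edgeR 4 had an unadjusted p under 0.05, as did 5.87% of all genes. These were the imprinted RNAs MEG8 at 3.50 (SE 0.73), MEG3 at 2.55 (SE 0.54) and KCNQ1OT1 at 2.14 (SE 0.58), and LINC-PINT at 1.43 (SE 0.52), with edgeR adjusted p between 0.578 and 0.828. MEG3 had 31.5 and 71.7 CPM in sh1088 and sh1196, against 5.73 CPM in the sh control. With overexpression 1 of 9 at or above a mean of 5 CPM was at least 2-fold higher, KCNQ1OT1 (log2 ratio 1.68), and 0 were as much lower, against 15.0% and 13.8% of all genes. Of the 11 cytoplasmic noncoding RNAs tested 0 were called and 1 had a higher estimate, with a median of -0.77. In edgeR 1 of them, with a lower estimate, had an unadjusted p under 0.05. That list was fixed to compare levels only, so setting its knockdown median beside the nuclear one was not planned. All lists share the sh control. The coding share was lowest there and in sh1088 (37.7% and 42.2%), and the part of library make-up in these medians was not tested. In the fit over the RBMS1 level 0 members of any of these lists were called.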

How the data were processed

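MALAT1 and NEAT1 were read from the gene tables of 5 A549 libraries. Per the file headers, the authors deposited RSEM expected counts (estimated counts) with a posterior SD, and TPM and FPKM per gene. Per the file headers, the authors' deposited comparison tables give normalised count means (a signal per gene), log2 fold changes, p-values and the count columns. RSEM 1.3.1, STAR 2.4.2, Bowtie and DESeq2 are listed without roles in the submitters' processing notes. Build and annotation: not given in the sources used here. Of 58929 identifiers, 58656 matched GENCODE release 29 (GRCh38) without version and 273 did not, and both members and all their transcripts matched with version.

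Here expected counts were rounded and tested with edgeR 4.0.16 in R 4.3.3 (quasi-likelihood, robust, TMM, filterByExpr, Benjamini-Hochberg at 0.05) over all genes, for knockdown (1 residual degree of freedom) and for the RBMS1 level over 5 libraries (2). Overexpression was 1 library against 1, so log2 ratios carry exact conditional 95% counting intervals and no p. DESeq2 1.42.0, limma 3.58.1, other scalings, no filter, other controls, TPM and FPKM (pseudocount 1) and left-out libraries were alternatives. Apart from their hairpins, the labels do not tell whether the knockdown cultures were separate, so a p-value here speaks only of the spread among these libraries, which may be technical. The fits were also run on simulated counts drawn with a fixed spread for all genes. That spread was not matched to these libraries, so the run does not show how the fits perform on them.

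The members, gene lists and tests were chosen with earlier results of these data known. The text names both members, genes that overlap them, the nearest coding gene upstream, up to 4 genes a list with the smallest knockdown p, and the 5 most alike genes of each. Depth was 10327747 to 13980843 expected counts a library. Some genes that this rule and the lists name are not reported here.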

Additional observations from a re-analysis of the deposited data

How the results depend on the processing

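No call of a member depended on the processing: adjusted p over the alternatives with a test ran from 0.0790 to 1.00 for MALAT1 and from 0.689 to 1.00 for NEAT1 in knockdown, and in the fit over RBMS1 level from 0.820 to 1.00 for MALAT1 and from 0.741 to 1.00 for NEAT1. The MALAT1 knockdown value stayed positive in all 13 alternatives. NEAT1 in knockdown became -0.41 with the pCDH control, and ran from -0.026 (without sh1088) to 0.22 without a hairpin library, as MALAT1 ran from 0.60 to 1.13. Per RBMS1 level, leaving out a library gave -0.89 to 0.057 for MALAT1, with 0.057 without the sh control, and -0.61 to -0.10 for NEAT1. Without the vector term the values were -0.046 and -0.050, and with library size alone -0.80 and -0.68.

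In overexpression MALAT1 was 0.086 with DESeq2 size factors, 0.011 per coding count, -0.079 per library size, 0.84 against the sh control, -0.78 by TPM, -0.25 by FPKM and -0.47 against genes of like GC content, an alternative chosen after seeing the data. NEAT1 was -0.66 per coding count, -0.75 per library size, -0.14 against the sh control, -1.88 by TPM, -1.35 by FPKM and -0.99 against genes of like GC content. The NEAT1 over MALAT1 difference was -2.03 by TPM and -0.45 against the pCDH control for knockdown, -0.90 to -0.62 without a hairpin library, and -1.10 by TPM and -0.98 against the sh control for overexpression.

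Genes called in knockdown numbered 27 with library size alone, 5 per coding count, 102 with no filter, 14 in DESeq2 and 93 with the pCDH control. On the authors' units limma called 3 genes by TPM and 22 by FPKM, without either member. MALAT1 held place 5 and 26 of 14913 there by limma's unadjusted p, on units that take in the length estimates above. Genes called by RBMS1 level numbered 28 with library size alone, 1 per coding count, 89 with no filter, 56 in DESeq2 and 0 to 40 with a library left out. Without a hairpin library knockdown has 1 library a group, so no count of calls was possible. The causes were not tested. No paired analysis was possible because the labels give the libraries no shared replicate numbers. Depth does not limit the members, whose counting intervals are narrow. The number of libraries does.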
